A study of Mus musculus with 12 samples.

Results

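The Slc25 mitochondrial carrier genes were followed in RNA sequencing of adult mouse hearts. They were taken as every row of the deposited count table whose symbol is Slc25a followed by a number, which gave 47 of 23457 genes. Reads were found for 46 of them, and 38 passed the low-count filter among the 13050 genes tested. Slc25a48 had no read in any library, and Slc25a2, Slc25a18, Slc25a21, Slc25a31, Slc25a41, Slc25a43, Slc25a53 and Slc25a54 had between 0 and 15 counts per library and were not tested.

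The carriers of this family are small proteins of the inner mitochondrial membrane that exchange solutes between the cytosol and the matrix. Some move adenine nucleotides and phosphate for ATP synthesis, and others move citric acid cycle intermediates, amino acids, acylcarnitines, cofactors or iron. In heart muscle they connect fuel oxidation to contraction, and the ADP/ATP carrier is among the most abundant proteins of cardiac mitochondria.

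The libraries came from 12 hearts of mice on the C57BL/6J background, described in the labels as adult and sampled 9 to 10 weeks after tamoxifen. The 6 noninduced mice had floxed alleles and no Cre. The 6 Parkin KO mice had floxed alleles and MerCreMer, a Cre recombinase that tamoxifen releases into the nucleus, and were induced as adults to lose Parkin, a ubiquitin ligase with a role in mitophagy, the clearance of damaged mitochondria. Only the Parkin KO group carried MerCreMer, so Parkin loss and Cre activity cannot be told apart. Which cells express the transgene is not given in the labels beyond the title, which calls the knockout cardiac. The frozen ventricular apex was used, although the labels also name the tissue as whole heart. The labels do not say that each heart came from a separate animal, so p-values measure the spread between these libraries, which may be technical in part.

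Total counts ran from 11610507 to 16884516 per library. Esr1, whose row can also collect reads of the MerCreMer receptor domain, stood at 1550 to 4680 CPM (library-scaled counts, by TMM) in Parkin KO libraries and at 24 to 64.9 CPM in noninduced libraries 2, 4, 5 and 6. The Esr1 level was 558 and 962 CPM in noninduced libraries 1 and 3, against their label. Transcripts encoded by mitochondrial DNA took 15.2% and 15.4% of counts in noninduced libraries 1 and 2, against 4.79% to 10% in the other 10. As a list, all 13 of these transcripts had lower values in Parkin KO hearts, 8 with an unadjusted p under 0.05. Of all tested genes, 5.54% were lower at that threshold, and 52% had a log2 fold change above 0. The median log2 fold change of the list was -0.66. Its summed level was 60206 to 172170 CPM in noninduced and 47613 to 93570 CPM in Parkin KO hearts. By Xist and Y-linked reads, 5 noninduced and 3 Parkin KO libraries were female, the other Parkin KO libraries were male, and noninduced library 3 held reads of both kinds. The carriers whose values turn on these libraries are named below with the values left without them.

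The labelled tissue was checked with cardiomyocyte markers, whose summed level was 84384 to 114005 CPM in noninduced and 106129 to 123786 CPM in Parkin KO libraries. Of 12 such markers 11 had a log2 fold change above 0, and 2 of these had an unadjusted p under 0.05. For these and the following markers, the share of all tested genes above 0 was 52%. With an unadjusted p under 0.05, 5.82% of all tested genes were higher and 5.54% lower. All 6 atrial markers had lower values in Parkin KO libraries, each with an unadjusted p under 0.05, and their sum ran from 121 to 5987 CPM in noninduced and from 158 to 1547 CPM in Parkin KO libraries. Fibroblast markers summed to 686 to 1772 and 597 to 1181 CPM, endothelial markers to 1024 to 1273 and 1140 to 1388 CPM, smooth muscle and pericyte markers to 726 to 1061 and 708 to 877 CPM, and macrophage markers to 211 to 269 and 169 to 282 CPM. Values were lower in Parkin KO libraries for 6 of 8, 3 of 8, 6 of 8 and 5 of 7 tested markers of these lists. At an unadjusted p under 0.05 there were 2 lower smooth muscle markers (Tagln and Cnn1), 2 lower macrophage markers (Cd68 and C1qb), 1 higher endothelial marker (Fabp4) and 0 fibroblast markers. Of the red blood cell markers, the hemoglobin rows Hba-a1, Hba-a2, Hbb-b1 and Hbb-b2 were at 0 in all libraries, and Hbb-bs and Hbb-bt had no row. The list still summed to 27.6 to 62.3 CPM in noninduced and 22.2 to 71.4 CPM in Parkin KO libraries. Its 2 tested markers were Alas2 (means of 39.2 and 42.7 CPM) and Slc4a1 (2.85 and 2.4 CPM). The empty hemoglobin rows therefore do not show that blood was absent. Adipocyte markers summed to at most 9.2 CPM. The part of these differences, and of the mitochondrial DNA transcripts, in the carrier values was not tested.

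The promoters of Slc25a3, Slc25a4 and Slc25a20 are shown because of the fold changes described below. These 3 genes were among the 4 carriers with higher values in Parkin KO hearts at an unadjusted p under 0.05. They come from RefSeq (build GRCm38.p6), run from 250 bases before to 50 bases after the start that RefSeq gives, and are written 5′ to 3′ on the gene's strand. The capitals mark CCGGAAG, a core sequence bound by the ETS factor GABPA, a regulator of nuclear genes for mitochondrial proteins. Of 4 motifs searched it is the one found in all 3 promoters, and it was chosen for display after the search. Slc25a4 lies at chr8:46206797-46211284 on the minus strand and its promoter window at chr8:46211013-46211312, Slc25a3 lies at chr10:91116574-91124059 on the minus strand with its window at chr10:91123918-91124217, and Slc25a20 lies at chr9:108662088-108684641 on the plus strand with its window at chr9:108661886-108662185. The gene spans are those of GENCODE, which start further upstream than the RefSeq starts, so that 272, 142 and 98 bases of the windows of Slc25a4, Slc25a3 and Slc25a20 lie within the span.
Slc25a4: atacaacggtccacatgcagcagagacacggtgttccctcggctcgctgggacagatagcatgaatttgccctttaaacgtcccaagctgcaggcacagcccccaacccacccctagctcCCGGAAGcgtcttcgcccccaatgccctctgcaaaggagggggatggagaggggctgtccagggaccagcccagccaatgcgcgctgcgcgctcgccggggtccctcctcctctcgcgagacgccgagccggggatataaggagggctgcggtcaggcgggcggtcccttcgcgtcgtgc
Slc25a3: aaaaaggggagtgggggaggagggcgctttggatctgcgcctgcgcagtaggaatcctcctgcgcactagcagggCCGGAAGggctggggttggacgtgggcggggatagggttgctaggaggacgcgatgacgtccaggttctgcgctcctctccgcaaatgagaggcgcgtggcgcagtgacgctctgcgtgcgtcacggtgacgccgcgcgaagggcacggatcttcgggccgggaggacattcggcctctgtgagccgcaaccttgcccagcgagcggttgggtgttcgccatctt
Slc25a20: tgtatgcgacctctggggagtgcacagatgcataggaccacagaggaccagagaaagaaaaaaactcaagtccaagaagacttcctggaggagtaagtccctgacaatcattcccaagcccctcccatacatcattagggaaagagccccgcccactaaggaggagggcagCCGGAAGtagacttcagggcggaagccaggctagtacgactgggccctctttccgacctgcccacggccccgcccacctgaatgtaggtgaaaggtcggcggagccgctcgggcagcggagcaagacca
The first C of the capitals lies at position -130 from the RefSeq start in Slc25a4, at -175 in Slc25a3 and at -79 in Slc25a20. In Slc25a4 the capitals lie within the GENCODE gene span, and in the other two upstream of it.

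RefSeq promoter entries were matched by symbol for 36 carriers, with 46 promoters in all. CCGGAAG was searched on both strands and was present in 7 of these 46 promoters (15.2%), those of Slc25a3, Slc25a4, Slc25a17, Slc25a20, Slc25a25, Slc25a38 and Slc25a54, and in 8.86% of all 32851 promoters of the same length. The promoter window of Slc25a34 did not hold these letters. The NRF1 core GCGCATGC was found in 2 of 46 carrier promoters (Slc25a31 and Slc25a54, 4.35%) and in 2.71% of all. The cAMP response element TGACGTCA was likewise found in 2 (Slc25a25 and Slc25a36, 4.35%), against 1.79% of all. The estrogen-related receptor element TNAAGGTCA was in 0 of 46 and in 1.28% of all promoters. These are matches of letters in a window and not measured binding sites.

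Carrier levels in these hearts spanned several orders of magnitude when compared per length, as deposited FPKM (fragments scaled to transcript length and library size). Slc25a4, the heart and muscle isoform of the ADP/ATP carrier, was the highest at 3480 ± 682 FPKM (SD over 12 libraries). Slc25a3, which brings in the phosphate for ATP synthesis, followed at 432 ± 76.4 FPKM, and Slc25a11, the oxoglutarate carrier of the malate-aspartate shuttle, at 282 ± 23.8 FPKM. The next were Slc25a5, the broadly expressed ADP/ATP carrier, at 144 ± 24.1, Slc25a34, whose substrate is not settled, at 127 ± 26.2, and Slc25a39, needed for mitochondrial glutathione, at 117 ± 12.4 FPKM. Slc25a12 (aspartate-glutamate), Slc25a20 (carnitine-acylcarnitine), Slc25a42 (coenzyme A) and Slc25a22 (glutamate) completed the 10 highest, at 91.4 ± 7.61, 62 ± 15.3, 48.2 ± 10.4 and 34.4 ± 8.27 FPKM.

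The order Slc25a4, Slc25a3, Slc25a11, Slc25a5 was the same in all 12 libraries. Below it, neighbours were not always separated: Slc25a5 was above Slc25a34 in 9 of 12 libraries, and Slc25a34 above Slc25a39 in 5 of 12. Slc25a39 was above Slc25a12 in 12, Slc25a12 above Slc25a20 in 11, Slc25a20 above Slc25a42 in 10 and Slc25a42 above Slc25a22 in 12 of 12. Slc25a4 alone made up 67.3% ± 4.11 of the family's summed FPKM in noninduced and 69.9% ± 1.37 in Parkin KO hearts (SD, n = 6 each), and the 5 highest members 87.4% ± 2.28 and 89.3% ± 0.861. At the low end, 12 of the 47 carriers averaged under 1 FPKM.

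**Figure D1:**
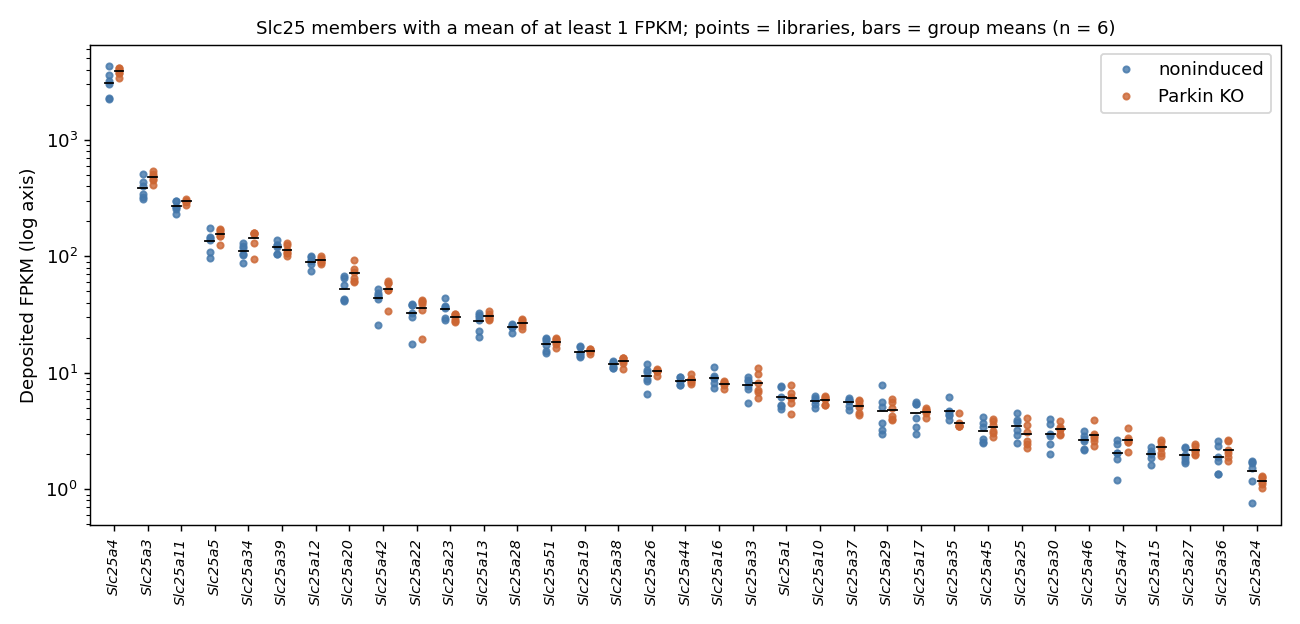
Deposited FPKM (log axis) of the 35 carriers with a mean of at least 1 FPKM, in order of their mean over 12 libraries; points are libraries, coloured by group, and bars are group means. Slc25a4 sits between 2260 and 4260 FPKM, above every other carrier in all libraries.

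None of the 38 tested carriers differed between Parkin KO and noninduced hearts at an adjusted p under 0.05 in edgeR's quasi-likelihood test, as was so for all genes (0% of 13050), and the smallest adjusted p was 0.417 among the carriers. At an unadjusted p under 0.05, 4 carriers (10.5% of 38) had higher values in Parkin KO hearts, against 5.82% of all genes. In the other direction 1 carrier (2.63%) had lower values, against 5.54% of all genes. The groups overlapped in CPM for all 38, and they did not overlap for 0.345% of all genes. DESeq2 likewise gave 0 carriers at an adjusted p under 0.05.

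The fold changes were small. The log2 fold change (Parkin KO over noninduced) was above 0 for 29 of 38 carriers (76.3%), as for 52% of all genes, with a median of 0.09 against 0.01 over all genes and a range from -0.37 to 0.43. The 95% confidence intervals had a median half-width of 0.27 and lay within -1 to 1 for all 38 carriers, so that no interval reached a doubling or a halving. The summed carrier reads made up 0.567% ± 0.0932 of a noninduced library and 0.675% ± 0.0383 of a Parkin KO library (SD, n = 6 each). Noninduced libraries 6, 2 and 1 had the lowest summed level (5060, 5149 and 5334 CPM), which was highest in Parkin KO library 6 at 6990 CPM. Noninduced library 4, at 6830 CPM, lay within the Parkin KO range of 6260 to 6990 CPM, so the groups overlapped. With Slc25a4 left out of the sum, noninduced libraries 1 and 2 held 2909 and 2817 CPM, within the Parkin KO range of 2742 to 3262 CPM. Noninduced libraries 6 and 5 were then the lowest, at 2262 and 2687 CPM. Fewer cardiomyocytes and less RNA per cell cannot be told apart in such bulk samples.

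**Figure D2:**
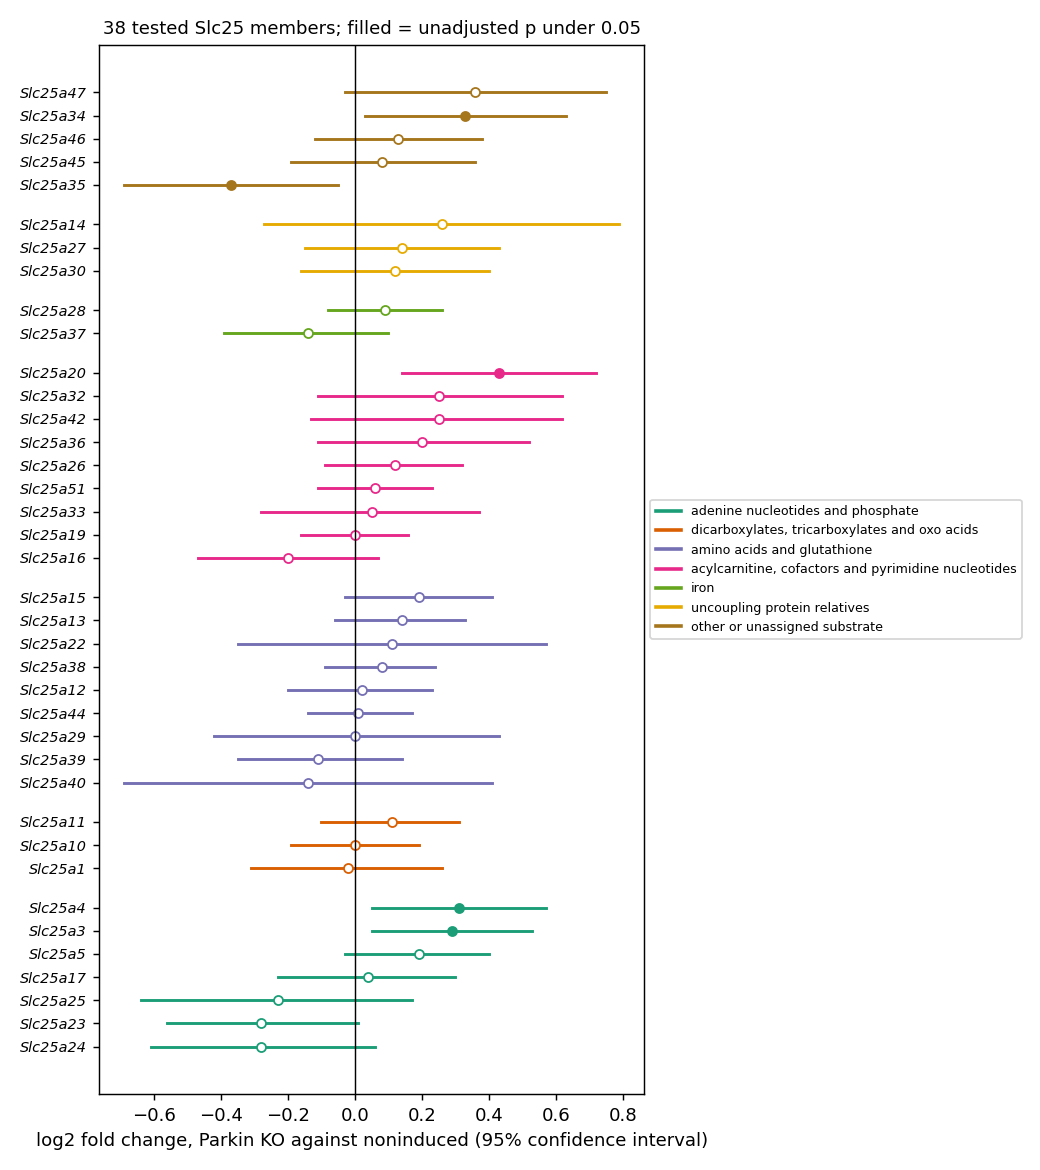
Log2 fold change of Parkin KO over noninduced hearts with its 95% confidence interval for the 38 tested carriers, grouped and coloured by transported substrate; filled points have an unadjusted p under 0.05. Estimates run from -0.37 (Slc25a35) to 0.43 (Slc25a20), and the intervals of all but 5 carriers include 0.

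Carriers of adenine nucleotides and phosphate, the export route of ATP and import route of its precursors, were split. Of 7 tested, 4 had log2 fold changes above 0, with a median of 0.04, and 2 had an unadjusted p under 0.05. Slc25a4 stood at 2332, 2842 and 3869 CPM (lowest, median, highest) in noninduced and at 3348, 3625 and 3808 CPM in Parkin KO hearts. Noninduced libraries 1 and 2 were the lowest, noninduced library 4 was the highest of all 12, and the other 5 noninduced libraries lay below every Parkin KO library. The log2 fold change was 0.31 ± 0.123 (SE; edgeR adjusted p = 0.424), or 1.24-fold. Without noninduced libraries 1 and 2, which carry the high mitochondrial DNA share, it was 0.18. It was 0.24 without libraries 1 and 3, whose Esr1 level was above the rest of their group, and 0.34 among female libraries. Each of these settings gave an unadjusted p above 0.05. Leaving out only noninduced library 1 (0.25) or 2 (0.24) also brought the unadjusted p above 0.05.

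Slc25a3 stood at 433, 500 and 665 CPM in noninduced and at 548, 655 and 715 CPM in Parkin KO hearts. Noninduced library 6 was the lowest, 4 of the 6 noninduced libraries lay below the lowest Parkin KO library, and noninduced libraries 3 and 4 overlapped the other group. Its log2 fold change was 0.29 ± 0.112 (edgeR adjusted p = 0.424) and was 0.21, with an unadjusted p above 0.05, without noninduced libraries 1 and 2. Leaving out noninduced library 1 (0.24) or 2 (0.25) or Parkin KO library 6 (0.25) did the same. So did leaving out noninduced library 6 together with Parkin KO library 1 (0.23). Within female libraries it was 0.36, with an unadjusted p still under 0.05. Slc25a5 stood at 118, 144 and 175 CPM and at 142, 163 and 184 CPM, with noninduced libraries 1 and 2 the lowest. For Slc25a5 the log2 estimate was 0.19 ± 0.0998 (edgeR adjusted p = 0.46). It was 0.12 without noninduced library 1, 0.07 without libraries 1 and 2, and 0.24 with an unadjusted p under 0.05 without noninduced library 6. In the longest Slc25a5 transcript, 46.6% of the 50-base words also occur in other annotated transcripts, with the pseudogene Gm5560 sharing the most. The Slc25a5 count therefore depends on how such reads were assigned. Slc25a4 shares none.

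With all 12 libraries, the calcium-regulated ATP-magnesium/phosphate carriers had estimates below 0. Their log2 fold changes were -0.28 ± 0.131 for Slc25a23, -0.28 ± 0.158 for Slc25a24 and -0.23 ± 0.19 for Slc25a25 (edgeR adjusted p = 0.438, 0.478 and 0.612). Slc25a23 and Slc25a24 fall outside the naming rule and are given because their values, once seen, opposed those of Slc25a3 and Slc25a4. Slc25a24 had an unadjusted p under 0.05 without noninduced library 1, alone or together with library 2 or 3. Slc25a23 stood at 89.3, 119 and 161 CPM in noninduced and at 89.4, 98 and 109 CPM in Parkin KO hearts, with noninduced libraries 1, 2, 3 and 5 above all Parkin KO libraries. The unadjusted p of Slc25a23 was above 0.05 with all libraries and without noninduced libraries 1 and 2. For Slc25a25, noninduced libraries 1 and 2 held the most, at 14 and 15.8 CPM, while Slc25a24 was lowest of all in noninduced library 1, at 2.84 CPM. The Slc25a25 estimate was -0.02 without noninduced libraries 1 and 2 and 0.03 among female libraries. Slc25a17, a carrier of the peroxisomal membrane, had a log2 fold change of 0.04.

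The 2 ADP/ATP carriers were also compared within each library, where no scaling between libraries enters. In FPKM, Slc25a5 amounted to 3.23%, 4.53% and 5.45% of Slc25a4 (lowest, median, highest) in noninduced and to 3.6%, 3.93% and 4.56% in Parkin KO hearts, and the groups overlapped. The log2 ratio of counts differed by -0.14 (exact two-sided permutation test, p = 0.271, adjusted over 3 ratios 0.403). Of the single libraries left out, noninduced library 4 gave the largest difference, -0.23 (adjusted p = 0.0455 by the same permutation test). That removal was picked as the most extreme, and its p was adjusted over the 3 ratios alone. The range over single libraries is given further below.

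Carriers of di- and tricarboxylates showed no change past the test. Slc25a11 stood at 371, 502 and 526 CPM in noninduced and at 469, 508 and 539 CPM in Parkin KO hearts. Noninduced libraries 5 and 6 were the lowest and the remaining 10 lay between 469 and 539 CPM. A log2 fold change of 0.11 ± 0.0957 was estimated (edgeR adjusted p = 0.638), which was 0.06 without noninduced library 5, 0.04 without library 6 and 0.17 without libraries 1 and 3. The citrate carrier Slc25a1 and the dicarboxylate carrier Slc25a10, which complete the 3 tested members, lay between -0.02 and 0.00.

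Amino acid and glutathione carriers had log2 fold changes from -0.14 to 0.19 in the 9 tested members, above 0 for 7 of them, with a median of 0.02 and no unadjusted p under 0.05. Slc25a12, the calcium-sensitive aspartate-glutamate carrier of heart and brain, stood at 194, 268 and 292 CPM and at 238, 254 and 297 CPM, a log2 fold change of 0.02 ± 0.101 (edgeR adjusted p = 0.954). Slc25a13, its close relative, stood at 69.5, 82.8 and 98.9 CPM and at 84.4, 93.1 and 102 CPM (0.14 ± 0.0916, edgeR adjusted p = 0.546). The Slc25a13 estimate was 0.07 without noninduced library 1, 0.09 without library 2, 0.03 without both and 0.25 among female libraries. Both ranges overlapped, with noninduced library 6 lowest for Slc25a12 and noninduced library 1 lowest for Slc25a13. In FPKM, Slc25a13 amounted to 22%, 31.7% and 40.7% of Slc25a12 in noninduced and to 29.8%, 33.2% and 36.6% in Parkin KO hearts (difference of log2 count ratios 0.12, exact permutation p = 0.403, adjusted 0.403). That difference was -0.04 without noninduced libraries 1 and 2.

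Slc25a39 stood at 147, 187 and 239 CPM in noninduced and at 151, 171 and 195 CPM in Parkin KO hearts (log2 fold change -0.11 ± 0.117, edgeR adjusted p = 0.706). Noninduced libraries 1, 2 and 3 were above every Parkin KO library, and the estimate was -0.04 without library 1 and 0.02 without libraries 1 and 2. Its relative Slc25a40 was far lower, at 0.567 against 117 FPKM, and had the largest relative spread among noninduced libraries of all tested carriers (coefficient of variation 39.7%), from 0.569 CPM in library 2 to 2.29 CPM in library 4. The Slc25a40 log2 estimate of -0.14 was -0.30 without library 2, -0.41 without libraries 1 and 2, and -0.01 without library 4. Slc25a29, which carries basic amino acids, was also spread widely among noninduced libraries (35.5%), from 5.54 to 13.8 CPM, with a log2 fold change of 0.00 ± 0.201.

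The mitochondrial glutamate carrier Slc25a22 separated libraries within each group. It stood at 41.2, 89.2 and 109 CPM in noninduced and at 48, 99.1 and 105 CPM in Parkin KO hearts. Noninduced library 6 and Parkin KO library 1 held the 2 lowest values, and the next lowest in each group were 71.8 and 84.6 CPM. Its log2 fold change was 0.11 ± 0.217 (edgeR adjusted p = 0.844), and leaving out single libraries gave values from -0.04 (without noninduced library 6) to 0.24 (without Parkin KO library 1).

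Among carriers of acylcarnitines, cofactors and pyrimidine nucleotides, 8 of 9 tested had log2 fold changes above 0, with a median of 0.12 and a range from -0.20 to 0.43. Slc25a20, which exchanges acylcarnitine for carnitine and so admits long-chain fatty acids for oxidation, had the largest value of the family. It stood at 63.9, 87.5 and 104 CPM in noninduced and at 97.7, 112 and 148 CPM in Parkin KO hearts. Noninduced libraries 6, 2, 1 and 3 lay below every Parkin KO library, while noninduced libraries 4 and 5, at 103 and 104 CPM, overlapped Parkin KO libraries 1 and 3. The estimated log2 fold change was 0.43 ± 0.136 (edgeR adjusted p = 0.417), or 1.35-fold. The unadjusted p stayed under 0.05 in 22 of 23 other settings, and the exception was the female libraries alone, with a log2 fold change of 0.26. Among the 5 carriers with an unadjusted p under 0.05, the edgeR, DESeq2 or limma adjusted p ran from 0.197 to 0.949 over all settings.

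Slc25a42, which imports coenzyme A in exchange for adenine nucleotides, stood at 72.4, 146 and 152 CPM in noninduced and at 101, 166 and 188 CPM in Parkin KO hearts. The 5 noninduced libraries other than library 6 lay between 141 and 152 CPM, and the 5 Parkin KO libraries other than library 1 between 154 and 188 CPM. For Slc25a42 the log2 estimate was 0.25 ± 0.177 (edgeR adjusted p = 0.565). Leaving out noninduced library 6 alone gave 0.11, with an unadjusted p above 0.05, and leaving out Parkin KO library 1 alone gave 0.35, with one under 0.05. Without these 2 libraries it was 0.21 and its unadjusted p was under 0.05 (edgeR adjusted p = 0.292), a setting chosen after the values were seen.

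The iron carriers mitoferrin 1 (Slc25a37, prominent in red cell precursors) and mitoferrin 2 (Slc25a28, broadly expressed) differed little between groups. Slc25a28 stood at 31.7, 34.1 and 39.3 CPM and at 32.5, 36.9 and 41.2 CPM (0.09 ± 0.0801, edgeR adjusted p = 0.643). Slc25a37 stood at 18.9, 22.2 and 28.3 CPM and at 17.4, 21.3 and 25 CPM (-0.14 ± 0.115, edgeR adjusted p = 0.613), and its estimate was -0.09 without noninduced library 1 and -0.03 without libraries 1 and 2. The Slc25a28 estimate was 0.05 without Parkin KO library 2. In FPKM the ratio of Slc25a28 to Slc25a37 was 3.8, 4.36 and 5.46 in noninduced and 4.64, 5.02 and 6 in Parkin KO hearts, with overlapping groups (difference of log2 count ratios 0.23, exact permutation p = 0.0411, adjusted over 3 ratios 0.123). Again leaving out noninduced library 4 gave the largest difference of the single libraries left out, 0.29 (adjusted permutation p = 0.026). Here too the removal was picked as the most extreme, and the p was adjusted over the 3 ratios alone.

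The uncoupling protein relatives Slc25a14, Slc25a27 and Slc25a30 had log2 fold changes of 0.12 to 0.26 and no unadjusted p under 0.05. Of 5 tested carriers with other or unassigned substrates, 4 had values above 0, and the median was 0.13. Slc25a34 stood at 212, 297 and 328 CPM in noninduced and at 240, 396 and 426 CPM in Parkin KO hearts. Parkin KO libraries 2 to 6, at 330 to 426 CPM, lay above every noninduced library, while Parkin KO library 1 lay below all of them but library 6. Its log2 fold change was 0.33 ± 0.139 (edgeR adjusted p = 0.424), and its unadjusted p was under 0.05 in 14 of 23 other settings. Leaving out any 1 of noninduced libraries 2, 5 and 6 or Parkin KO libraries 2, 3, 4 and 6 brought it above 0.05, with estimates of 0.25 to 0.32. Without noninduced library 6 and Parkin KO library 1 it was 0.34 (edgeR adjusted p = 0.222).

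Slc25a35, of unsettled substrate and far lower level than Slc25a34 (4.2 against 127 FPKM), was the carrier with lower values at an unadjusted p under 0.05. It stood at 6.45, 7.68 and 11.9 CPM in noninduced and at 5.76, 5.86 and 8.03 CPM in Parkin KO hearts. Noninduced library 1 was the highest, and all noninduced libraries lay above the 5 Parkin KO libraries other than library 2. Its log2 fold change was -0.37 ± 0.149 (edgeR adjusted p = 0.424), and -0.21, with an unadjusted p above 0.05, without noninduced libraries 1 and 3. Leaving out only noninduced library 1 gave -0.25, also with an unadjusted p above 0.05. Exons of Rangrf on the opposite strand cover 31.3% of the Slc25a35 exon bases (chr11:68968131-68974365, plus strand), and the libraries keep no strand. Rangrf had a log2 fold change of -0.20 ± 0.0937 (edgeR adjusted p = 0.438). The liver carrier Slc25a47 was low here, at 1.95 to 5.04 CPM, with a log2 fold change of 0.36 ± 0.183 (edgeR adjusted p = 0.448). Its unadjusted p was under 0.05 in 7 of 23 other settings, among them those without noninduced library 2 (0.46) and without Parkin KO library 1 (0.42).

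**Figure D3:**
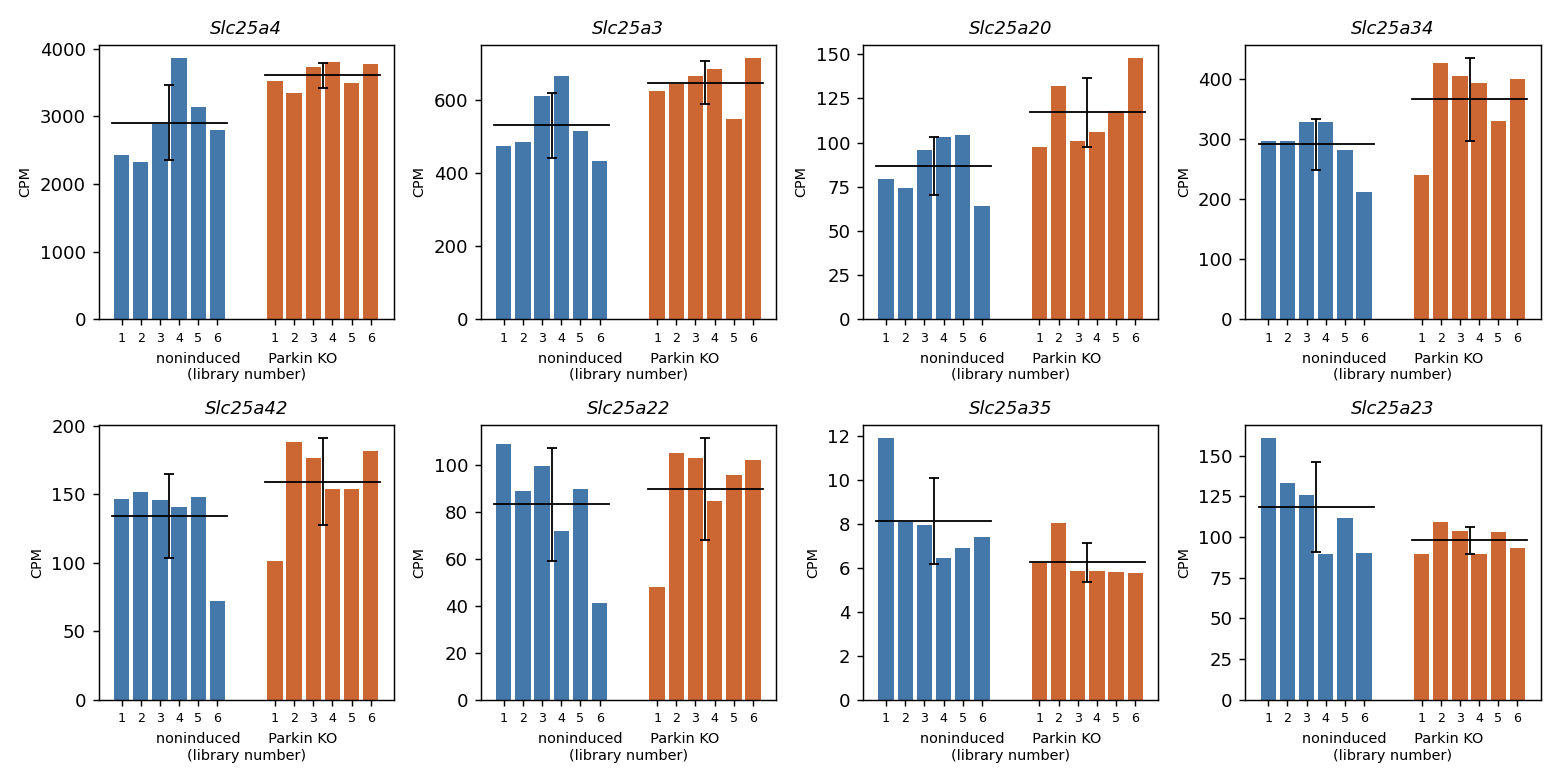
CPM of 8 carriers in each of the 6 noninduced and 6 Parkin KO libraries (bars), with the group mean (line) and SD (error bar). Slc25a42 and Slc25a22 are lowest in noninduced library 6 (72.4 and 41.2 CPM) and Parkin KO library 1 (101 and 48 CPM), while noninduced libraries 1 and 2 are lowest in Slc25a4 and highest in Slc25a23.

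In some members, 2 patterns of low and high libraries were seen, and how many members follow either was not counted. In the first, noninduced libraries 1 and 2 were the lowest in Slc25a4 (2424 and 2332 CPM) and were also low in Slc25a3, Slc25a5, Slc25a13 and Slc25a20, and they were the highest of all libraries in Slc25a23 (161 and 133 CPM), Slc25a35 (11.9 and 8.06 CPM) and Slc25a39 (239 and 201 CPM). These are the libraries with the largest mitochondrial DNA share and the smallest TMM factors, 0.884 and 0.909, and the part of either in the carrier values was not tested. In the second, noninduced library 6 and Parkin KO library 1 were the lowest of 12 in Slc25a22, Slc25a34 and Slc25a42. Noninduced library 6 was the lowest library for 11 of 38 carriers and the highest for 0, and noninduced library 1 the lowest for 9 and the highest for 7. Parkin KO library 1 was the lowest for 0 carriers.

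Genes outside the 47 rows that also stood apart in these 2 libraries were picked after their values were seen. Ucp3, an uncoupling protein of muscle and a relative under another symbol, was lowest there, at 21 and 25.4 CPM, whereas the remaining noninduced libraries held 33 to 69.4 CPM and the remaining Parkin KO libraries 87.8 to 163 CPM. Gdf15, a secreted protein of cell stress, was highest there, at 28 and 12.2 CPM, against 1.17 to 3.99 CPM elsewhere. Myh7, the slow myosin heavy chain that rises in stressed ventricle, was 6462 CPM in noninduced library 6 and 2640 CPM in Parkin KO library 1, but also 3428 and 3917 CPM in Parkin KO libraries 5 and 6. In those last 2 libraries Slc25a22 was not low, at 95.9 and 102 CPM.

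The coefficient of variation of CPM was larger among noninduced than among Parkin KO libraries for 30 of 38 carriers (78.9%), and for 64.5% of all genes. The medians were 17.7% and 10.4% for carriers and 17.1% and 14.1% for all genes. For Slc25a4 the coefficients were 19.2% and 5.13%.

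**Figure D4:**
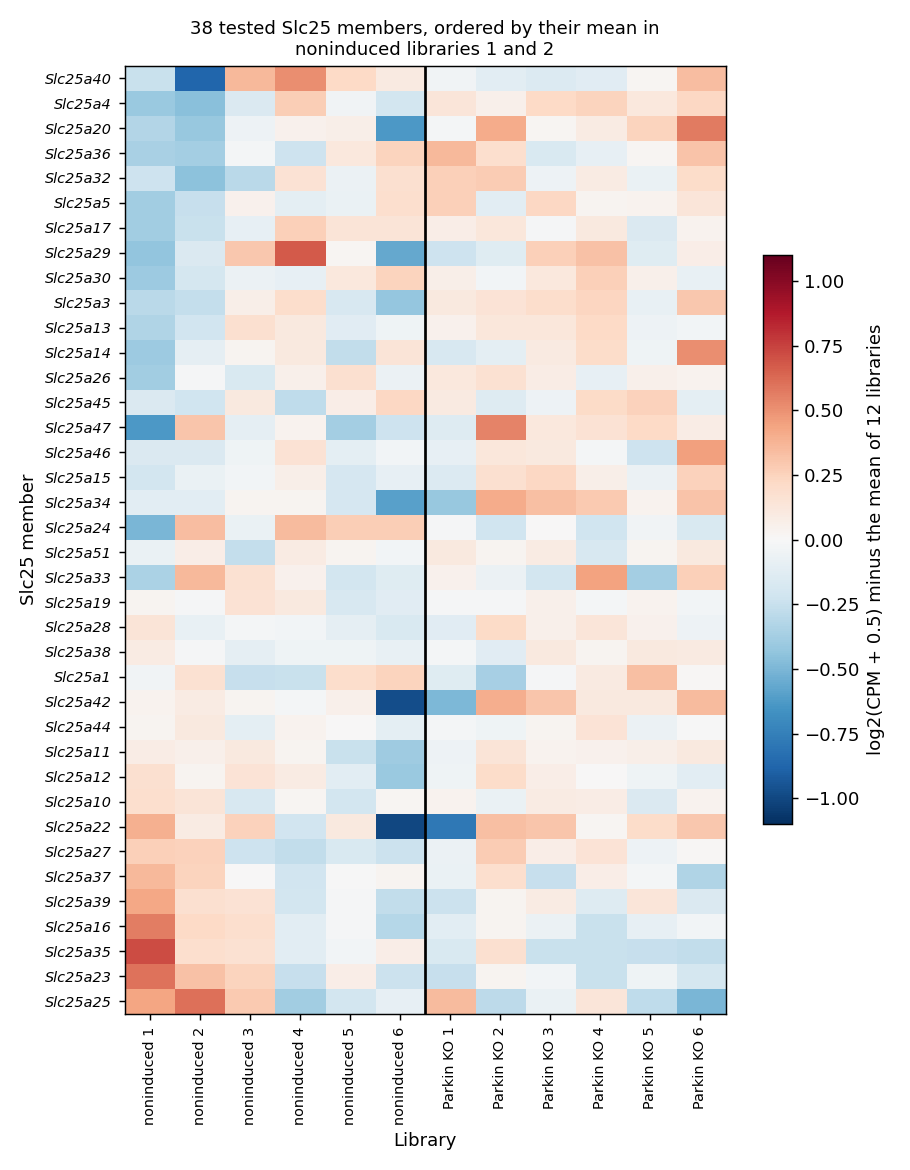
Log2(CPM + 0.5) of the 38 tested carriers in each library minus the mean of all 12 libraries (colour), with carriers ordered by their mean in noninduced libraries 1 and 2. Those 2 libraries are low at the top (Slc25a4, 2424 and 2332 CPM) and high at the bottom (Slc25a23, 161 and 133 CPM), and noninduced library 6 and Parkin KO library 1 share low Slc25a22, Slc25a34 and Slc25a42.

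Genes that work beside the carriers were taken from lists of partners. Of 4 tested family members with other symbols, 2 had log2 fold changes above 0 and 2 below 0, with a median of 0.13. The 2 above 0 had an unadjusted p under 0.05. Of all tested genes, 52% were above 0 and 5.82% were higher with an unadjusted p under 0.05. Ucp2 had the lowest value of the list, -0.40 ± 0.237 (edgeR adjusted p = 0.495). Ucp3 had a log2 fold change of 1.02 ± 0.352 (edgeR adjusted p = 0.417). Its levels were 21, 51 and 69.4 CPM in noninduced and 25.4, 99 and 163 CPM in Parkin KO hearts, and Parkin KO library 1 was the only one of its group within the noninduced range. Mtch2, an insertase of the outer membrane, stood at 27.5, 35.9 and 40.1 CPM and at 40.1, 42.8 and 47.7 CPM (0.27 ± 0.091, edgeR adjusted p = 0.417).

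In the carnitine shuttle, which feeds Slc25a20, 5 of 6 tested genes had log2 fold changes above 0, 3 with an unadjusted p under 0.05. The median was 0.29. Of all tested genes, 52% were above 0 and 5.82% were higher with an unadjusted p under 0.05. Cpt1b, the muscle enzyme that makes acylcarnitine, stood at 10.2, 15.3 and 16.2 CPM and at 16.2, 19.5 and 21.4 CPM (0.38 ± 0.116, edgeR adjusted p = 0.417). A read-through model, Gm44502, shares 81.4% of its exon bases, so its count depends on how shared reads were assigned. Slc22a5, the carnitine transporter of the cell membrane, had a log2 fold change of 0.31 ± 0.124 (edgeR adjusted p = 0.424).

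The shares of all tested genes, 52% above 0 and 5.82% higher with an unadjusted p under 0.05, apply to each list that follows. All 12 tested genes of the import route that delivers carriers to the inner membrane had log2 fold changes above 0. These ran from 0.04 to 0.37 with a median of 0.16, and 3 genes had an unadjusted p under 0.05. Among them were the small intermembrane chaperones Timm8b (0.26 ± 0.1) and Timm13 (0.37 ± 0.149). Of 16 genes of ATP synthase and mitochondrial creatine kinase, which use the substrates of Slc25a3 and Slc25a4, 11 were above 0 and 5 had an unadjusted p under 0.05, with Atp5j at 0.58 ± 0.208 and Atp5a1 at 0.34 ± 0.117. Of 10 genes of iron use, 8 were above 0 and 4 had an unadjusted p under 0.05, with Nfs1, the sulfur donor of iron-sulfur clusters, at 0.29 ± 0.0941 and Abcb10 at 0.25 ± 0.0862. The malate-aspartate shuttle enzymes had a median of 0.07 over 4 genes, Mdh1 at 0.22 ± 0.12 and Mdh2 at 0.09 ± 0.117, with no unadjusted p under 0.05.

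For pyruvate and serine carriers and outer membrane pores, the shares of all tested genes were 52% above 0, 5.82% higher and 5.54% lower, the last 2 with an unadjusted p under 0.05. Of the 10 genes listed, 7 were above 0, and 2 higher and 1 lower had an unadjusted p under 0.05. They included Mpc1, a subunit of the pyruvate carrier, at 0.39 ± 0.169 and the sideroflexin Sfxn3 at -0.28 ± 0.107. In none of these partner lists did a gene reach an adjusted p under 0.05 in edgeR, where the smallest adjusted p was 0.417 and 1483 of 13050 genes had an unadjusted p under 0.05.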

How the data were processed

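Polyadenylated RNA of 12 hearts was sequenced, single-end and without strand. The authors deposited counts per gene and FPKM, and the submitters' processing notes name Bowtie2, TopHat2 2.0.10, HTSeq and Cufflinks 2.1 with build mm10. Annotation and counting mode are not stated in the sources used. Table columns with a wild-type abbreviation were matched to noninduced samples by number.

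Counts of all genes were fitted in R 4.3.3 with edgeR 4.0.16 (TMM, filterByExpr, quasi-likelihood F test on the group term, two-sided, Benjamini-Hochberg adjustment over 13050 genes, threshold 0.05). Standard errors and 95% intervals were derived from that test and are approximate. CPM were computed from deposited counts, and 1 count was worth 0.0548 to 0.0948 CPM. DESeq2 1.42.0, limma 3.58.1 on log2(FPKM + 1), and other settings were alternatives. FPKM of 4 genes listed at 0 in libraries with over 1000 counts were left out. The code was tested on simulated data. Positions and shared sequence come from GENCODE for GRCm38, in which all 47 carriers were found.

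The carriers, the substrate and partner lists and the tests were chosen with earlier results of these data known. Named members are Slc25a4 and Slc25a20, the 10 of highest FPKM, those with an unadjusted p under 0.05, those of the 3 ratios and the 5 of largest coefficient of variation in noninduced libraries. Named partners are the 2 of smallest p per list, and Ucp2 is added for its opposite sign. The counts of the targeted gene are not reported here.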

Additional observations from a re-analysis of the deposited data

Results flagged for a closer look

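A library that stood apart from its own group was looked for in 36 groups of 6 values, those of 18 named members. Chance gives about 1 in 20 groups that are not chosen by their values, and that rate does not hold here, since some members were named for their spread or their difference. For Slc25a42, noninduced library 6 was the lowest at 72.4 CPM, against 141 to 152 CPM in the others. For Slc25a22, Parkin KO library 1 was the lowest at 48 CPM, against 84.6 to 105 CPM. Slc25a35 stood apart in both groups, with noninduced library 1 highest at 11.9 CPM (others 6.45 to 8.06) and Parkin KO library 2 highest at 8.03 CPM (others 5.76 to 6.21). For Slc25a40, Parkin KO library 6 was the highest at 1.98 CPM, against 1.26 to 1.49 CPM.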

How the results depend on the processing

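The median log2 fold change of the carriers stayed between 0.05 and 0.11 in every setting tried, and no setting gave a carrier an adjusted p under 0.05. The number of carriers with an unadjusted p under 0.05 was less stable. The 4 with higher values became 1 in female libraries alone and ranged from 2 to 7 when single libraries were left out (2 without noninduced library 1 or 2 or Parkin KO library 6, 7 without Parkin KO library 1). The 1 with lower values became 2 with RLE size factors, with no low-count filter, with DESeq2 and with limma on log2(FPKM + 1) or log2(FPKM + 0.1), 0 in female libraries and 3 without noninduced library 6 and Parkin KO library 1. It ranged from 1 to 3 when single libraries were left out, and Slc25a23 was the added carrier in the settings that gave 2, and Slc25a16 and Slc25a23 in those that gave 3 (without noninduced library 6, alone or with Parkin KO library 1). Without noninduced library 1, alone or with library 2 or 3, the 1 was Slc25a24 in place of Slc25a35. Over all genes, 1483 with an unadjusted p under 0.05 became 628 in female libraries and 632 without noninduced libraries 1 and 2, and ranged from 932 (without noninduced library 2) to 2131 (without noninduced library 4). Genes with an adjusted p under 0.05 numbered 10 with DESeq2 and 1 without noninduced libraries 1 and 3. The causes were not tested.

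Signs changed for estimates near 0. Slc25a12 (0.02) was -0.003 with RLE size factors and with DESeq2, -0.05 without noninduced library 6 and Parkin KO library 1, and -0.06 to 0.05 with single libraries left out. Slc25a29 was -0.01 with RLE size factors and DESeq2, -0.04 without noninduced libraries 1 and 3, -0.15 without libraries 1 and 2, -0.06 without noninduced library 6 and Parkin KO library 1, and -0.11 to 0.18 with single libraries left out. Slc25a22 was -0.02 and Slc25a25 0.03 in female libraries, and Slc25a22 ran from -0.04 to 0.24 with single libraries left out. Slc25a39 was 0.01 without noninduced libraries 1 and 3 and 0.02 without 1 and 2. The log2 ratio of Slc25a13 to Slc25a12 was -0.04 without noninduced libraries 1 and 2 and 0.03 to 0.20 with single libraries left out. With single libraries left out, that of Slc25a5 to Slc25a4 ran from -0.23 to -0.08 and that of Slc25a28 to Slc25a37 from 0.18 to 0.29, and they were -0.07 in female libraries and 0.15 without noninduced libraries 1 and 2. Removing noninduced libraries 1 and 2, and noninduced library 6 with Parkin KO library 1, was chosen after seeing the data.

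The groups share replicate numbers, but same-numbered libraries deviated together weakly (correlations from -0.111 to 0.2), and 1 of 6 noninduced libraries correlated best with its own number. With a replicate block, 5 carriers had higher and 1 lower values at an unadjusted p under 0.05, among 1700 genes, and 0 had an adjusted p under 0.05. Depth limits the 9 untested carriers, at 15 counts or fewer per library.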
